A study of Mus musculus with 63 samples.

Results

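The expression of 10 long noncoding RNA (lncRNA) genes, Malat1, Neat1, Miat, Tug1, Gas5, Snhg1, Snhg3, Snhg8, Snhg12 and Rmst, was followed through every RNA sequencing library of a study of Chaserr, a lncRNA transcribed just upstream of the chromatin remodeller gene Chd2. The genes were chosen by name, and all 10 had a row in each of 47 gene tables of 24990 rows. Of these rows, 2109 were annotated as lncRNA genes. The libraries came from WT and Chaserr+/- mice, as whole embryos at E9.5 or E13.5 and as adult brain (3 per group), from cultured mouse embryonic fibroblasts (mEFs), and from an RNA immunoprecipitation (RIP) with an antibody to CHD2 in the mouse neuroblastoma line Neuro2a. The mEFs formed 4 sets, each with its own WT: Chaserr+/- (3 against 3), Chaserr-/- (3 against 3), Chd2m/m (2 against 3) and Chaserr-/- Chd2m/m (3 against 3), here the double mutant. Sample titles of the double mutant name a Chd2+/m cross, whereas those of its WT name a Chaserr+/- Chd2+/m cross. They were placed in the same set by their descriptions, so a shared cross is uncertain.

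The Chaserr- allele was a deletion of the promoter and first exon, and animals of 2 founder lines were used interchangeably. For the double mutant, per the study, this region was deleted anew in Chd2m/m mice. The Chd2m allele was a short frameshift deletion that left residual protein, so Chd2m/m cells are hypomorphs. The mEFs were primary cultures from E13.5 embryos without head and liver, and the adult mice had no exact age in the labels. The RIP comprised 2 libraries each of CHD2 antibody, control IgG and input. Per the study, Chaserr-/- mEFs were derived independently and the ATAC-seq mEFs came from different embryos. For the other groups no source used here says that replicates were separate animals or cultures, so p-values there measure the spread between these samples, which may be technical. By their labels, WT mEFs of the Chaserr+/- and Chaserr-/- sets and of the ATAC-seq came from the same pregnancy as their mutants. Differences between these sets cannot be told apart from differences between litters.

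Embryos and the third brain library of each genotype were made with the TruSeq poly(A) kit, and the other brains and all mEFs with the SENSE poly(A) kit. The RIP libraries were depleted of ribosomal RNA without poly(A) selection. Total counts ranged from 21589962 to 33192002 in TruSeq, 9672637 to 16983416 in SENSE and 7621335 to 20050508 in RIP libraries. Chaserr, the deleted gene, was listed at 0 FPKM in the 3 Chaserr-/- libraries and at 0, 0.07 and 0.12 FPKM in the double mutant. FPKM are fragment counts divided by transcript length and library depth, the per-length scale on which levels of different genes are compared below.

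LncRNAs are transcripts without a long reading frame. Malat1 marks nuclear speckles, Neat1 builds paraspeckles, and Miat, also called Gomafu, is a nuclear RNA of neurons. Tug1 is a spliced lncRNA first described in retina, and Rmst is a neural lncRNA known to work with Sox2. Gas5 and the Snhg genes are small nucleolar RNA (snoRNA) hosts: the snoRNAs that guide ribosomal RNA modification are cut from their introns, while the spliced exons often decay fast. Genes of this type, like those of ribosomal proteins, often begin transcription in a run of pyrimidines, the 5′ terminal oligopyrimidine (TOP) start.

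The position of each gene in mm9, the build used in the study, was taken from GENCODE. Malat1 lay on the minus strand at chr19:5795690-5802671, and Neat1 22037 bases away on the same strand at chr19:5824708-5845478. Miat lay at chr5:112642248-112657968, Tug1 at chr11:3539797-3548815 and Rmst at chr10:91544491-91627923. Among the hosts, Gas5 at chr1:162964553-162968670 held 9 annotated snoRNA genes, Snhg1 at chr19:8797986-8800932 held 8, Snhg12 at chr4:131864593-131866939 held 4 and Snhg3 at chr4:131903929-131909601 held 2. Snhg3 and Snhg12 were 36990 bases apart on opposite strands. Snhg8, whose table row was joined with that of the snoRNA Snora24, was placed only by its start at chr3:123211254.

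The 3′ ends of Malat1 and of the long form of Neat1 are shown because they bear on what poly(A) selection can capture. Neither is known to carry a poly(A) tail added after cleavage at a poly(A) signal: RNase P cuts downstream of a genome-encoded A-rich tract, which folds with U-rich motifs into a triple helix. Capitals mark the U-rich motifs and the A-rich tract. The short form of Neat1 instead ends after a poly(A) signal, which is in capitals in the third line. The stretches are chr19:5795937-5796072, chr19:5824708-5824765 and chr19:5842307-5842366, all read from the minus strand of mm9.
Malat1: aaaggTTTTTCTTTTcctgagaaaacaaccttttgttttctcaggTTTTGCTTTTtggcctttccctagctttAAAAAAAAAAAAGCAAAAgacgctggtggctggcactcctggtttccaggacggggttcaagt
Neat1, long form: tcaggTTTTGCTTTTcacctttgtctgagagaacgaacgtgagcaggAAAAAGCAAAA
Neat1, short form: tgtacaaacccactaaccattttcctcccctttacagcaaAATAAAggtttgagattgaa

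The letters AAAAAGCAAAA occurred, on the transcript strand, in the last 400 bases of 91 of 78279 annotated transcript ends (0.116%). The letters TTTTGCTTTT occurred in 303 (0.387%). Only 4 ends held the second motif within 100 bases before the first, namely 3 annotated Malat1 transcripts and the long Neat1 transcript. The annotation of the long form stopped at the last letter of the A-rich tract, whereas that of Malat1 ran on for 292 bases.

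The starts of the 5 snoRNA hosts are shown because genes of this type are known for pyrimidine-rich starts, which the choice of genes did not use. Each line is 80 bases of mm9, 40 before the start site and 40 from it, and the longest pyrimidine run next to the start is in capitals. The sequences of RefSeq promoters, available for 8 of the 10 genes, were located in mm9 at chr1:162965257-162965336 (plus strand), chr19:8797937-8798016 (plus), chr4:131909562-131909641 (minus), chr3:123211215-123211294 (minus) and chr4:131864553-131864632 (plus), in the order printed.
Gas5: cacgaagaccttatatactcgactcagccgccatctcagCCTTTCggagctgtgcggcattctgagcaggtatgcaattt
Snhg1: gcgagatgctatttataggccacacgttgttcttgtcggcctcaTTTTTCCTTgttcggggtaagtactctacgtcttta
Snhg3: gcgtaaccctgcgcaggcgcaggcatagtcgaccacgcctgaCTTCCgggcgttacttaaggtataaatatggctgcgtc
Snhg8: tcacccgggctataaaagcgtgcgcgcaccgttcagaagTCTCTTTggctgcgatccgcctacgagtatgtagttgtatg
Snhg12: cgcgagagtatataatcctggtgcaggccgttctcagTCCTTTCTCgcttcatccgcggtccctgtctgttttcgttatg

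A run of at least 7 pyrimidines within 5 bases of the start was found in Snhg1 (9 bases), Snhg12 (9), Snhg8 (7) and also Miat (7). The run was 6 bases in Gas5 and 5 in Snhg3, so 3 of the 5 hosts and 1 other gene met this length. Of 32851 RefSeq promoters, 14.1% held such a run. The letters TATAA stood 15 to 40 bases before the start of Neat1, Snhg8 and Snhg12, against 3.79% of promoters, again on the transcript strand. A match describes letters in a window and is not evidence of use.

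In WT poly(A) libraries the genes divided by tissue (the plot of WT levels). The snoRNA hosts Snhg1 and Gas5 were highest in embryos and lowest in SENSE brain libraries, Miat and Rmst were present in embryos and brain and near 0 in mEFs, and Malat1 was highest in SENSE brain libraries. Not all of them were abundant. Over the 21 WT poly(A) libraries, the best rank of a gene by FPKM was 372 for Snhg1, 382 for Snhg3, 414 for Malat1, 588 for Gas5 and 693 for Snhg12. Neat1 never ranked above 3874, and Rmst, with a highest value of 2.42 FPKM, never above 11493.

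**Figure D1:**
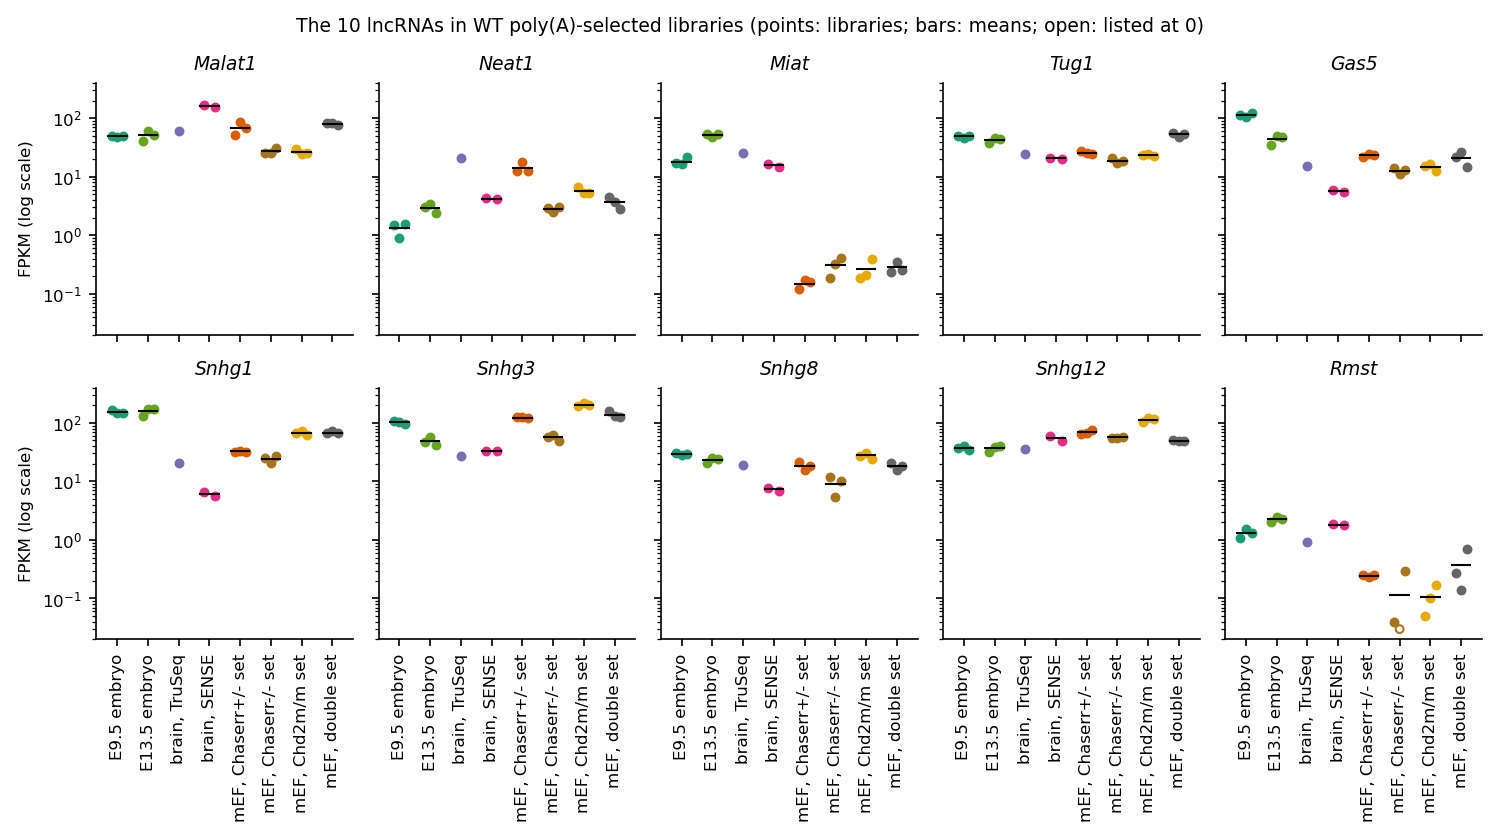
FPKM (log axis) of the 10 lncRNAs in the 21 WT poly(A)-selected libraries, with a point per library, a bar at the mean of each group and an open point for a value of 0; the 4 mEF groups are the WT libraries of the 4 mutant sets. Miat fell from between 47.46 and 53.68 in E13.5 embryos to at most 0.41 in mEFs, and Malat1 in mEFs split between sets at 24.59 to 31.14 and at 51.42 to 85.34.

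Malat1 read 50.02, 48.44 and 50.11 FPKM in E9.5 embryos, 41.37, 59.89 and 52.28 in E13.5 embryos, 61.25 in the TruSeq brain library, and 167.71 and 156.38 in the SENSE brain libraries. The 12 WT mEF libraries ran from 24.59 to 85.34 FPKM. In order of means, SENSE brain (162 ± 8.01 FPKM, SD, n = 2) stood above TruSeq brain, which stood above E13.5 embryos (51.2 ± 9.31, n = 3), whereas E13.5 embryos, mEFs (50.8 ± 26.5, n = 12) and E9.5 embryos (49.5 ± 0.939, n = 3) overlapped.

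Neat1 was low in E9.5 embryos (1.52, 0.89 and 1.57 FPKM) and higher in E13.5 embryos (3.03, 3.39 and 2.39). It read 20.83 FPKM in the TruSeq brain library, 4.35 and 4.13 in the SENSE brain libraries and 2.50 to 17.81 in mEFs. By FPKM, the TruSeq brain library lay above all other WT libraries, and the mEF range overlapped the SENSE brain values. These FPKM divide by an assigned length that was longer in mEFs, as given below, so the order need not hold for fragments.

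Miat was highest in E13.5 embryos (53.68, 47.46 and 53.48 FPKM). It read 25.39 in TruSeq brain, 16.88, 16.32 and 21.52 in E9.5 embryos and 16.33 and 14.95 in SENSE brain, and the last 2 groups overlapped. In mEFs it lay between 0.12 and 0.41 FPKM, below every embryo and brain library. Rmst was likewise highest in E13.5 embryos and lowest in mEFs, at lower levels, with 2.05 to 2.42 FPKM in E13.5 embryos, 1.79 and 1.88 in SENSE brain, 1.07 to 1.52 in E9.5 embryos, 0.94 in TruSeq brain and 0 to 0.70 in mEFs.

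Tug1 was found in all tissues. It ran from 46.70 to 49.99 FPKM in E9.5 embryos and from 37.41 to 46.76 in E13.5 embryos, and read 24.05 in TruSeq brain and 20.09 and 21.15 in SENSE brain. The mEF libraries spanned 16.91 to 56.89 FPKM and so overlapped every other tissue.

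Among the hosts, Snhg1 and Gas5 dropped from embryo to brain. Snhg1 read 144.75 to 166.68 FPKM in E9.5 embryos, 132.36 to 174.54 in E13.5 embryos, 20.53 to 72.34 in mEFs, 20.70 in TruSeq brain and 5.56 and 6.50 in SENSE brain. The embryonic stages overlapped, and TruSeq brain lay inside the mEF range. Gas5 read 103.37 to 124.97 FPKM in E9.5 embryos, 35.37 to 50.24 in E13.5 embryos, 11.05 to 26.22 in mEFs, 15 in TruSeq brain and 5.58 and 5.89 in SENSE brain.

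In the other 3 hosts the highest single library was a mEF library. Snhg3 was 49.70 to 222.36 FPKM in mEFs, 96.88 to 109.09 in E9.5 embryos, 42.62 to 56.39 in E13.5 embryos and 26.94 to 33.14 in brain. Snhg8 was 27.72 to 30.35 FPKM in E9.5 embryos, 20.56 to 24.80 in E13.5 embryos, 19.09 in TruSeq brain, 5.47 to 31.14 in mEFs and 6.98 and 7.86 in SENSE brain. Snhg12 had a narrower range, with 49.11 to 119.37 FPKM in mEFs, 49.20 and 59.90 in SENSE brain and 32.30 to 40.94 in embryos and TruSeq brain together. For both Snhg3 and Snhg12 the highest libraries were WT mEFs of the Chd2m/m set.

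These steps were tested with edgeR's quasi-likelihood test on counts, fitted to all 21 WT libraries with p adjusted by Benjamini-Hochberg over 17185 genes. Log2 changes in this and later comparisons are from such fits. Tissue contrasts moved most genes, so a call was the rule and not particular to lncRNAs: 71.7% of all genes were called between E13.5 and E9.5 embryos (37% higher and 34.7% lower in E13.5), 73.4% between TruSeq brain and E13.5 embryos (35.4% higher and 38.1% lower in brain), and 83% between SENSE brain and mEFs (43.8% higher and 39.2% lower in brain).

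From E9.5 to E13.5, 2 of the 10 rose and 7 fell, whereas the change of Rmst was not called. Miat rose by a log2 change of 1.12 (SE 0.13, adjusted p = 1.24e-07) and Neat1 by 0.71 (SE 0.29, adjusted p = 0.0359). Gas5 changed by -1.74 (SE 0.15, adjusted p = 1.86e-09), Snhg3 by -1.49 (SE 0.11, adjusted p = 2.38e-10), Snhg8 by -0.71 and Tug1 by -0.63 (SE 0.09, adjusted p = 2.04e-06). The median over the 10 genes was -0.37, against 0.06 over all genes. Smaller decreases of Snhg12 (-0.39), Snhg1 (-0.34) and Malat1 (-0.33) depended on the scaling. Scaled to library totals, which moved the median of all genes from 0.06 to 0.43, Malat1 and Snhg1 turned to 0.05 and 0.04 and Snhg12 to -0.02, none of them called, and the call of Snhg8 was lost as well. Over all genes that scaling called 8845 higher and 3549 lower, against 6363 and 5966. Leaving out 1 embryo library removed the call of Malat1 for each library but the second of E13.5. It removed that of Neat1 for the first or second of E13.5 (0.69 and 0.59) or the second of E9.5 (0.50), and that of Snhg1 for the first of E13.5 (-0.22).

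Between E13.5 embryos and brain within the TruSeq kit, Neat1 was higher in brain by 3.01 (SE 0.30, adjusted p = 2.29e-08), an 8.07-fold step, and Malat1 by 0.48 (SE 0.19, adjusted p = 0.0245). Snhg1 was lower by -2.73 (SE 0.18, adjusted p = 4.72e-11), Gas5 by -1.35, Miat by -0.80, Snhg3 by -0.63 and Tug1 by -0.56. Snhg8 (-0.48), Snhg12 (0.16) and Rmst (-1.04) did not pass. Brain had only 1 WT library of this kit, whose spread was taken from the other groups, and the call of Malat1 was lost with library totals (0.26) or without the first E13.5 library (0.34).

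Between mEFs and brain within the SENSE kit, all 10 genes passed. Brain was higher for Miat by 5.90 (SE 0.13, adjusted p = 9.78e-20), a 59.7-fold step, for Rmst by 3.19 (SE 0.40, adjusted p = 2.62e-07) and for Malat1 by 1.74 (SE 0.11, adjusted p = 6.91e-12). Brain was lower for Snhg1 by -3.02 (SE 0.17, adjusted p = 7.48e-13), Snhg3 by -2.02, Gas5 by -1.72, Neat1 by -1.52, Snhg8 by -1.35, Tug1 by -0.60 and Snhg12 by -0.48. The smaller decreases depended on which WT mEFs stood for the tissue. Against those of the Chaserr-/- set alone, Neat1 (-0.11), Snhg8 (-0.37), Snhg12 (-0.12) and Tug1 (0.10) were not called, and against those of the double mutant set alone Snhg12 (-0.01) was not.

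Related lists gave the context. Of 12 mRNAs with TOP starts, most of which code for translation factors and ribosomal proteins, 11 were lower in E13.5 than E9.5 embryos and all 12 were lower in brain than in E13.5 embryos and than in mEFs, with a median of -2.22 for the last step against 0.08 over all genes. Of 17 other snoRNA hosts, 3 were higher and 10 lower in E13.5 than in E9.5 embryos, 3 and 9 in TruSeq brain than in E13.5 embryos, and 4 and 12 in SENSE brain than in mEFs. Of 28 other known lncRNAs tested, 14 were higher and 8 lower, 9 and 13, and 15 and 11 in the same comparisons. In whole tissues, fewer cells of a type and less RNA per cell cannot be told apart. Cell makeup moved with these steps too. All 10 neuronal, all 10 macrophage and all 8 fibroblast markers were called higher in E13.5 than in E9.5 embryos, with medians of 3.04, 5.73 and 1.98. The summed neuronal level was 69.3 to 83.5 FPKM in E9.5, 764 to 915 in E13.5 embryos, 1705 to 2460 in WT brain and 18.6 to 59.1 in WT mEFs. The part of these markers in these results was not tested.

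For each gene the genes with the most similar profile over the 21 WT libraries were named by the Pearson correlation of log2 CPM (counts scaled to library size) among 13744 genes. Libraries of a tissue share kit and cell makeup, so the values describe these libraries only. Miat was nearest to Unc13b (r = 0.990) and Jag2 (0.987), Rmst to Syt14 (0.951) and Sox5 (0.949), and Snhg1 to Mapre1 (0.987) and Gnai3 (0.984). Tug1 was nearest to Fam135a (0.982), Gas5 to Golm1 (0.979), Snhg3 to Atp13a3 (0.968), Snhg12 to Pip5k1a (0.964), Neat1 to the rows of Mir22hg (0.945) and of Vmp1 with Mir21a (0.935), Snhg8 to Nsrp1 (0.938) and Malat1 to Rufy2 (0.888). Among the 10 genes the closest pair was Rmst and Miat (0.928), followed by Snhg8 and Snhg1 (0.834) and by Snhg1 and Gas5 (0.833), while Snhg12 and Miat ran opposite (-0.778).

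The readout of 8 of the 10 genes differed between poly(A) kits in adult brain, where the third library of each genotype was made with TruSeq and the others with SENSE. Across all genes 47.5% differed between kits, 23.7% higher and 23.8% lower in TruSeq. With library totals 5345 genes were called higher and 2375 lower, against 3627 and 3650. Kit could not be told apart from animal or run, because it went with replicate 3 of both genotypes.

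Malat1 read 61.25 and 48.95 FPKM in the TruSeq and 140.43 to 167.71 in the SENSE brain libraries, so the kits did not overlap. It was lower in TruSeq by -1.69 on the log2 scale (SE 0.10, adjusted p = 4.32e-05), with genotype in the fit. Rmst (-1.66, SE 0.29, adjusted p = 0.00238), Snhg12 (-1.27) and Snhg3 (-1.14) were lower in TruSeq as well. Snhg1 (1.29, SE 0.28, adjusted p = 0.00605), Gas5 (1.13), Neat1 (1.07) and Miat (0.44) were higher, and Tug1 (-0.06) and Snhg8 (0.42) did not pass. Some of these calls rested on a single library. Without the third WT brain library Neat1 (0.31) and Snhg1 (1.19) were not called, without the second WT library Neat1 (0.88) was not, and without the third Chaserr+/- library Snhg3 (-0.68) and Snhg12 (-0.93) were not.

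Neat1 also differed in the length that RSEM, the counting tool of the study, assigned to it. This length is the mean over annotated isoforms weighted by their estimated abundance. The annotation held a long form of 20771 bases and a short form of 3170 bases, which share their start. The assigned length was 3227 to 3510 bases in embryos, 3192 and 3200 in TruSeq brain, 3744 to 4766 in SENSE brain, 5562 to 9379 in 3 mEF sets and 8556 to 18014 in the double mutant set. It reached 20769 bases, the long form alone, in both CHD2 libraries, 1 IgG library and 1 input library. Since FPKM divide by this length, an equal FPKM stood for more fragments of Neat1 in mEFs than in embryos or brain. The place of TruSeq brain above mEFs by FPKM therefore does not describe fragments.

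**Figure D2:**
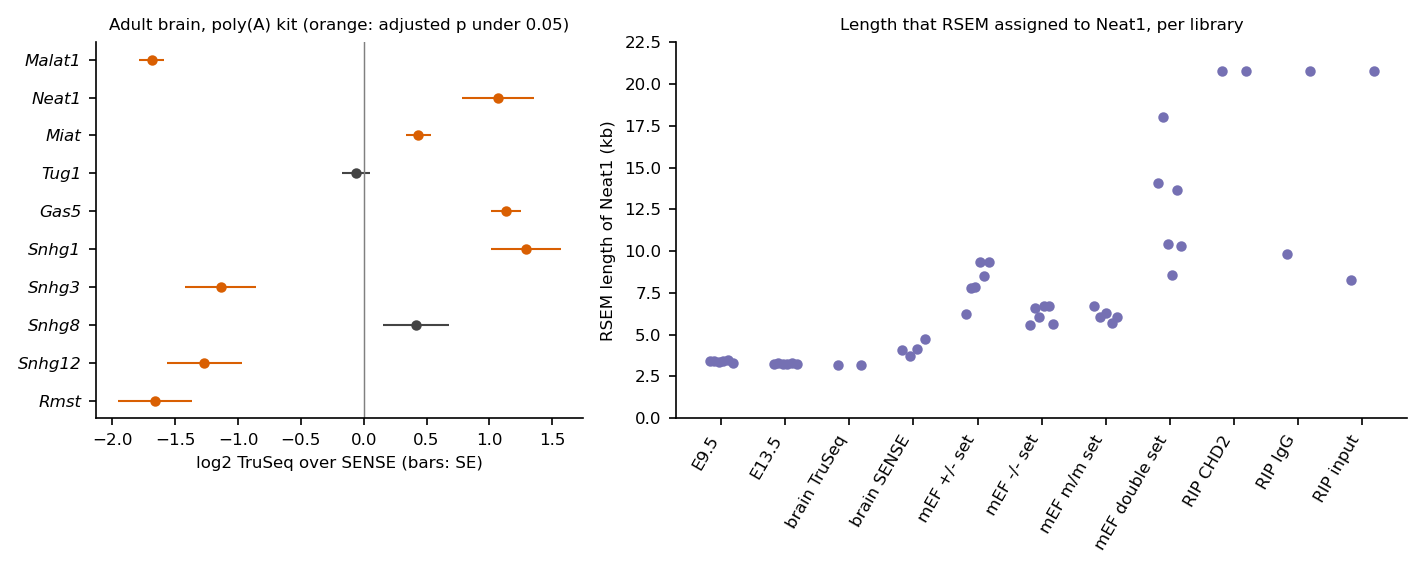
Left, log2 difference between TruSeq and SENSE adult brain libraries for the 10 lncRNAs with SE bars; right, the length in kilobases that RSEM assigned to Neat1 in each library, by group. Malat1 was lower in TruSeq by -1.69 and Snhg1 higher by 1.29, and Neat1 was assigned between 3192 and 20769 bases.

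To set poly(A) libraries beside rRNA-depleted ones, only the 2 input libraries of the RIP were available, so library kind and cell type cannot be told apart and no test was made. RNAs without poly(A) tails showed the difference between the kinds. The 62 replication-dependent histone genes summed to 37411 and 76102 FPKM in input and to at most 422 in any WT poly(A) library. Rmrp, the RNA of RNase MRP, read 3526 and 3976 FPKM in input and at most 7.16 in poly(A) libraries, and Rpph1, the RNA of RNase P, 1944 and 3497 against at most 7.10.

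None of the 10 lncRNAs showed such a step. Malat1 read 55.36 and 154.30 FPKM in input, within the poly(A) range of 24.59 to 167.71. Neat1 read 1.99 and 2.16 and Miat 4.84 and 3.35, all within theirs. Gas5 read 2.33 and 7.63 and Snhg1 9.40 and 5.26. For both genes the higher input value lay within the poly(A) range. The lower one lay below the lowest poly(A) value, 5.58 for Gas5 and 5.56 for Snhg1. Tug1 (5.66 and 12.66), Snhg3 (8.39 and 21.72) and Snhg8 (3.33 and 2.73) lay below all 21 WT poly(A) libraries. Snhg12 (194.54 and 141.56) lay above all of them, and Rmst had no count in input. The same 3 genes lay below, and Snhg12 above, on the TPM scale.

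Before the RIP results, the RIP libraries themselves need describing, because they held RNA of cell types other than the labelled neuroblastoma line. Mbp, the myelin basic protein of oligodendrocytes, read 348.50 and 226.90 FPKM in input, 538.91 and 455.28 in the CHD2 and 1363.05 and 986.59 in the IgG libraries. The sum of 4 oligodendrocyte markers was 276 to 426 FPKM in input, 546 to 664 in CHD2 and 1193 to 1663 in IgG, that of 10 macrophage markers 109 to 159, 209 to 247 and 471 to 668, and that of 7 erythroid genes 706 to 1094, 1491 to 1528 and 2811 to 3789. The sum of 8 neuroblastoma genes was instead highest in input, with 578 to 584 FPKM against 242 to 259 in CHD2 and 191 to 345 in IgG. Singly, 2 of the 8 were called lower and 0 higher in IgG than in input, against 10.3% of all genes lower. By FPKM, Chgb and Th were higher in both IgG libraries than in input. The IgG libraries also differed from each other, with Phox2a at 8.35 and 86.58 FPKM and Hand2 at 11.62 and 67.70. Between IgG and input, 4 of 4 oligodendrocyte, 8 of 9 tested macrophage and 4 of 4 tested erythroid genes were called higher in IgG. The part of this RNA in the results below was not tested, and its direction is given beside them.

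In the RIP, Malat1, Neat1 and Tug1 were recovered with the CHD2 antibody far above both controls, whereas the summed levels of oligodendrocyte, macrophage and erythroid markers in the CHD2 libraries lay below IgG and above input (the plot of RIP levels). Singly, 0 of 4 oligodendrocyte, 1 of 9 macrophage and 0 of 4 erythroid genes were called lower in CHD2 than in IgG by edgeR. At an unadjusted p under 0.05 the counts were 3, 6 and 2. Against input, 4 of 4, 8 of 9 and 4 of 4 lay above without overlap, the direction of the 3 lncRNAs, with medians of 0.83, 0.81 and 0.80 and 0 called (0, 3 and 1 at an unadjusted p under 0.05). The 10 lncRNAs together took 0.919% and 1.40% of all counts in the CHD2 libraries, and 0.0546% to 0.0883% in IgG and 0.0566% to 0.129% in input. Across all 14906 genes tested, 11.1% were higher and 0.376% lower in CHD2 than in IgG, and 8.91% were higher and 6.16% lower in CHD2 than in input. The balance of directions depended on the tool: against IgG edgeR called 1651 higher and 56 lower and DESeq2 2430 and 1043, and against input 1328 and 918 by edgeR and 1641 and 1797 by DESeq2.

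**Figure D3:**
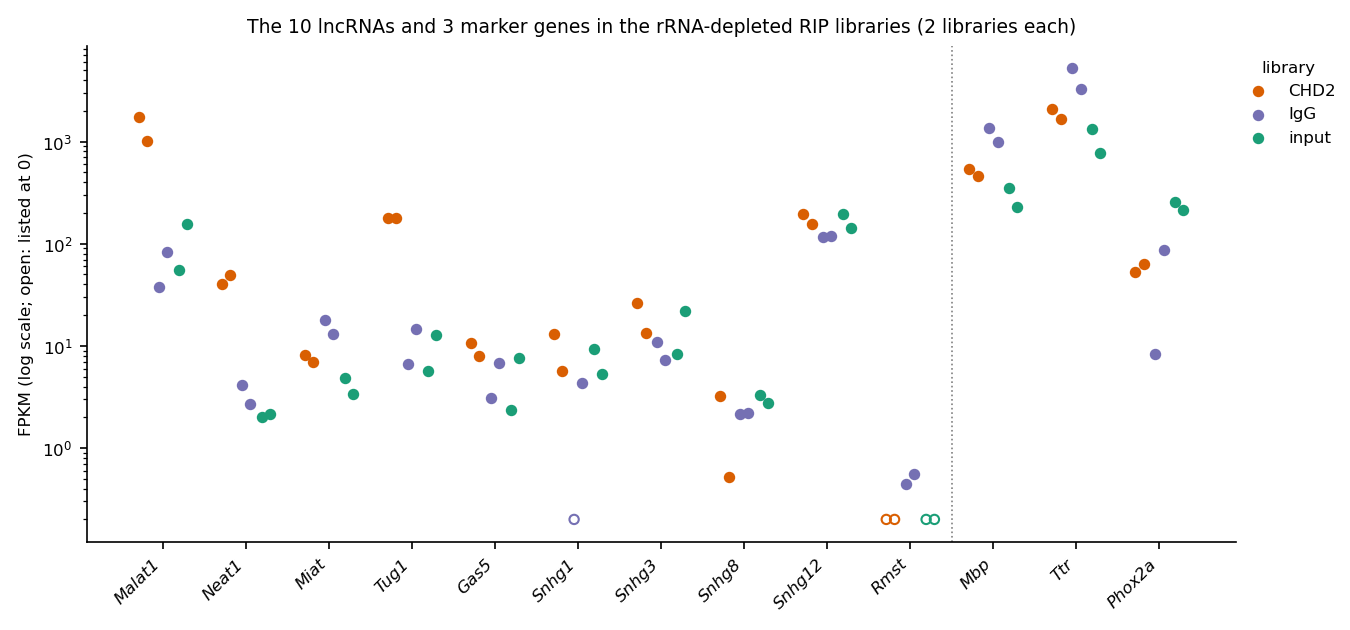
FPKM (log axis) of the 10 lncRNAs and, right of the dotted line, of 3 marker genes (Mbp of oligodendrocytes, Ttr of choroid plexus, Phox2a of sympathetic neurons and neuroblastoma) in the 2 libraries each of CHD2 RIP, IgG and input, with open points for values of 0. Malat1, Neat1 and Tug1 in the CHD2 libraries lay above all control libraries, and Mbp and Ttr were highest in IgG.

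Malat1 read 1741.76 and 1021.74 FPKM in the CHD2, 37.79 and 82.21 in the IgG and 55.36 and 154.30 in the input libraries. With 90805 and 63454 counts it was the 12th and 28th gene of these libraries by FPKM. It was higher than in IgG by a log2 change of 4.72 (SE 0.62, adjusted p = 0.00665), or 26.3-fold, and higher than in input by 3.83 (SE 0.60, adjusted p = 0.00925). By the change against IgG it ranked 128 of 14906 genes.

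Tug1 read 178.22 and 177.80 FPKM in the CHD2, 6.63 and 14.59 in the IgG and 5.66 and 12.66 in the input libraries. The change was 4.48 (SE 0.53, adjusted p = 0.00631) against IgG and 4.54 (SE 0.53, adjusted p = 0.00562) against input. Neat1 read 40.37 and 49.35 FPKM in the CHD2, 4.17 and 2.72 in the IgG and 1.99 and 2.16 in the input libraries. Its change was 4.45 (SE 0.49, adjusted p = 0.00606) against IgG and 5.04 (SE 0.51, adjusted p = 0.00457) against input. These 3 were the only members of the 10 called in either contrast, and in all 3 the CHD2 libraries lay above both controls without overlap. Among all genes 34.8% lay above IgG and 44% above input without overlap.

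With 2 libraries per group the calls rested on both CHD2 libraries. Without either one of them, none of the 3 passed against IgG or against input, while their changes stayed between 4.04 and 5.10 against IgG and between 2.96 and 5.64 against input over all cases in which 1 library was left out. The calls against input were also lost without the first input library, and without the second IgG library 6 of the 10 genes were called against IgG.

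The RIP counts used here were of annotated transcripts. Reads outside these, such as the many intronic reads that the study reported for CHD2 libraries, were not counted. The snoRNA hosts were not called in the CHD2 RIP, although Gas5, Snhg1, Snhg3 and Snhg12 lay above IgG without overlap. With Malat1, Neat1 and Tug1 this made 7 of the 10 genes, against 34.8% of all genes. Gas5 read 10.61 and 8.01 FPKM in the CHD2, 3.06 and 6.74 in the IgG and 2.33 and 7.63 in the input libraries, and its change of 1.13 against IgG did not pass (SE 0.55, adjusted p = 0.180). Snhg12 read 193.43 and 156.54, 115.49 and 119.95, and 194.54 and 141.56 FPKM in the same order, with a change of 0.80 (SE 0.31, adjusted p = 0.116). Snhg1, with 33 and 17 counts in the CHD2 and 0 and 16 in the IgG libraries, had a change of 2.41 (SE 1.36, adjusted p = 0.231). Snhg3, with 59 and 35 against 57 and 24 counts, had one of 1.37 (SE 0.64, adjusted p = 0.160), and Snhg8, with 16 and 3 against 26 and 16, one of -0.01 (SE 0.96, adjusted p = 0.994). On simulated counts this contrast recovered 0.5% of genes changed by a log2 of 1.5. Only 200 genes were changed there, whereas 1707 were called in the data. Adjustment was thus stricter in the simulation, and its recovery is not the power of the real test. With 2 libraries per group, a missing call against IgG, here and below, is not evidence of no change.

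Miat and Rmst were the genes of the 10 with values in IgG above both other groups. Miat read 8.23 and 6.97 FPKM in the CHD2, 17.73 and 13.14 in the IgG and 4.84 and 3.35 in the input libraries. It was called higher in IgG than in input by 1.79 (SE 0.35, adjusted p = 0.0211), and its change was -0.85 between CHD2 and IgG (SE 0.34, adjusted p = 0.122) and 0.94 between CHD2 and input (SE 0.34, adjusted p = 0.0946). With the replicate number as a block, both of the latter were called (-0.82, adjusted p = 0.0450, and 0.98, adjusted p = 0.0261). Rmst had 22 and 16 counts in IgG and none in the CHD2 and input libraries. Against a floor of 3 counts per library it was at least 6.21-fold higher in IgG than in input (adjusted p = 0.0434) and at least 3.48-fold higher than in CHD2 (adjusted p = 0.0922). Without the second input library neither IgG call held, and that of Rmst was also lost without the first input library and with the block. Across all genes 14.3% were higher and 10.3% lower in IgG than in input, or 2134 and 1537, against 2557 and 1053 with library totals. Both genes shared this order with the oligodendrocyte, macrophage and erythroid markers above.

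Other RNAs showed how far the CHD2 recovery extended. Of 551 tested rows annotated as lncRNA, 109 were higher and 1 lower in CHD2 than in IgG, with a median of 1.31 against 0.02 over all genes. Across all genes 11.1% were higher and 0.376% lower. Among 25 other known lncRNAs tested, 7 were higher, with Nespas at 3.97, Trp53cor1 at 3.92, Jpx at 2.90, Lncpint at 2.78, Ftx at 1.97, Kcnq1ot1 at 1.79 and Pvt1 at 1.31. As a list these 25 did not shift, with a median of 0.04. Of them 12 lay above and 11 below IgG without overlap, against 34.8% of all genes above. Of 17 other snoRNA hosts, Snhg14 (3.99) and Snhg17 (2.56) were higher. The median of these 17 was 0.04, and 6 lay above and 6 below IgG without overlap. Of the 12 TOP mRNAs, 0 were called between CHD2 and IgG by edgeR, with 0 at an unadjusted p under 0.05, but their median was -0.42 against 0.02 over all genes. Against input, 8 were called lower in CHD2. Chd2 mRNA itself was higher than in IgG by 2.02 (SE 0.29, adjusted p = 0.00721), whereas Chaserr, with 43 and 22 counts in CHD2 and 18 and 0 in IgG, did not pass (3.17, SE 1.23, adjusted p = 0.114). The study instead counted reads over whole gene bodies, introns included, and reported Chaserr among the RNAs most enriched over IgG and input.

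In the mutants, none of the 10 lncRNAs was called against its own WT (the plot of log2 changes). Over 7 comparisons 67 tests of the genes were made, since Rmst was too low in 3 mEF sets. The smallest adjusted p was 0.0522, 9 tests had an unadjusted p under 0.05 in edgeR, and changes ran from -0.60 to 0.93. In this test calls were rare among all genes as well: 0% in E9.5 Chaserr+/- embryos, 0.0314% in E13.5 Chaserr+/- embryos, 0% in Chaserr+/- brain, 0.173% in Chaserr+/- mEFs, 0.118% in Chaserr-/- mEFs, 0.0145% in Chd2m/m mEFs and 0.0924% in double mutant mEFs. That rarity depended on the tool and filter in Chaserr-/- mEFs, where the 16 calls became 2613 with DESeq2, 1407 without a filter, 1383 with at least 10 counts in every library and 1111 with library totals. By DESeq2 the 5 genes of Chaserr-/- mEFs described below were called and none in the other 6 comparisons.

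**Figure D4:**
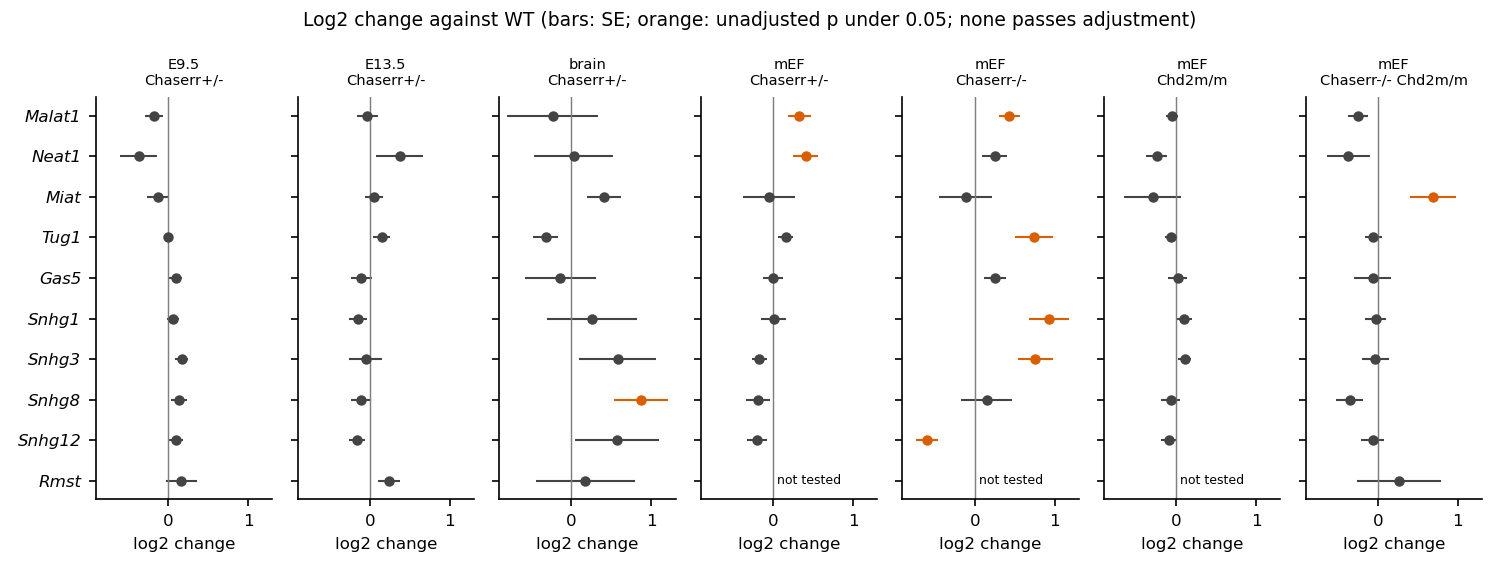
Log2 change of the 10 lncRNAs in each mutant group against the WT of its own set, with SE bars; orange marks an unadjusted p under 0.05 and no point passes after adjustment. The widest SE, up to 0.62, was in brain, and the highest change, 0.93 for Snhg1, and the lowest, -0.60 for Snhg12, were both in Chaserr-/- mEFs.

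In Chaserr+/- animals and cells no change passed, and in brain, where SE reached 0.62, a change of that size would not have been detectable. In E9.5 embryos the changes ran from -0.37 to 0.17 and in E13.5 embryos from -0.16 to 0.37, and no lncRNA of the 10 had an unadjusted p under 0.05 there, against 3.12% and 6.34% of all genes. In mEFs they ran from -0.20 to 0.41, and Malat1 (0.33) and Neat1 (0.41) had an unadjusted p under 0.05 against 8.36% of all genes. In brain the changes ran from -0.32 to 0.87, with such a p for Snhg8 alone, against 2.47% of all genes. Snhg8 read 10.25, 20.95 and 21.52 FPKM in Chaserr+/- and 7.86, 6.98 and 19.09 in WT brain, so the groups overlapped over both kits, while within each of the 3 replicate pairs, the third of the other kit, Chaserr+/- was higher. Its change was 0.87 (SE 0.33, adjusted p = 1.00), and 0.85 with the replicate block (adjusted p = 0.315), a fit in which 1954 of 14911 genes had an unadjusted p under 0.05 and 0 were called. The 17 other snoRNA hosts had a median of 0.49 in brain and 4 oligodendrocyte markers one of -0.77, with 0 called in either list by edgeR and 1 and 2 at an unadjusted p under 0.05, and their part in these values was not tested. The second Chaserr+/- brain library was the highest of the SENSE brain libraries for Snhg1, Snhg3, Snhg8 and Snhg12, with 10.50, 70.16, 20.95 and 121.24 FPKM. On normalised counts Snhg3 lay above WT in E9.5 embryos (0.17) and below it in mEFs (-0.17) without overlap, and Tug1 below it in brain (-0.32). Such separation held for 5.34% of all genes above WT in E9.5 embryos, 6.85% below WT in mEFs and 5.11% below WT in brain. The fitted change of Chd2 in the 4 Chaserr+/- comparisons was 0.55 to 0.98, and it was called in E13.5 embryos and mEFs.

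In Chaserr-/- mEFs no snoRNA host passed, and the values stood on both sides of WT (the plot of mEF libraries). Snhg1 read 67.65, 39.16 and 38.73 FPKM against 25.31, 20.53 and 26.87 in WT, a change of 0.93 (SE 0.25, adjusted p = 0.0542). Snhg3 read 137.07, 73.51 and 89.61 against 58.25, 61.11 and 49.70, a change of 0.76 (adjusted p = 0.0580). Snhg12 read 35.41, 38.60 and 41.62 against 55.68, 56.05 and 57.01, a change of -0.60 (adjusted p = 0.0522). None of the 3 overlapped WT. Gas5 read 16.57, 14.47 and 15.39 FPKM against 13.89, 11.05 and 13.08, also without overlap (0.25, adjusted p = 0.230), and Snhg8 read 13.72, 7.71 and 10.09 against 11.67, 5.47 and 10.12, with overlap (0.15, adjusted p = 0.764). The 15 other snoRNA hosts tested had a median of -0.17.

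Tug1 read 44.06, 22.47 and 26.93 FPKM against 20.84, 16.91 and 18.81, a change of 0.74 (adjusted p = 0.0677). Malat1 read 41.82, 36.66 and 34.37 against 25.24, 25.36 and 31.14, a change of 0.43 (adjusted p = 0.0655). Of the 9 genes tested, 5 lay above and 1 below WT without overlap, and 5 had an unadjusted p under 0.05. Among all genes 43.2% did not overlap, 21.8% above and 21.4% below WT, and 33.9% had an unadjusted p under 0.05.

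**Figure D5:**
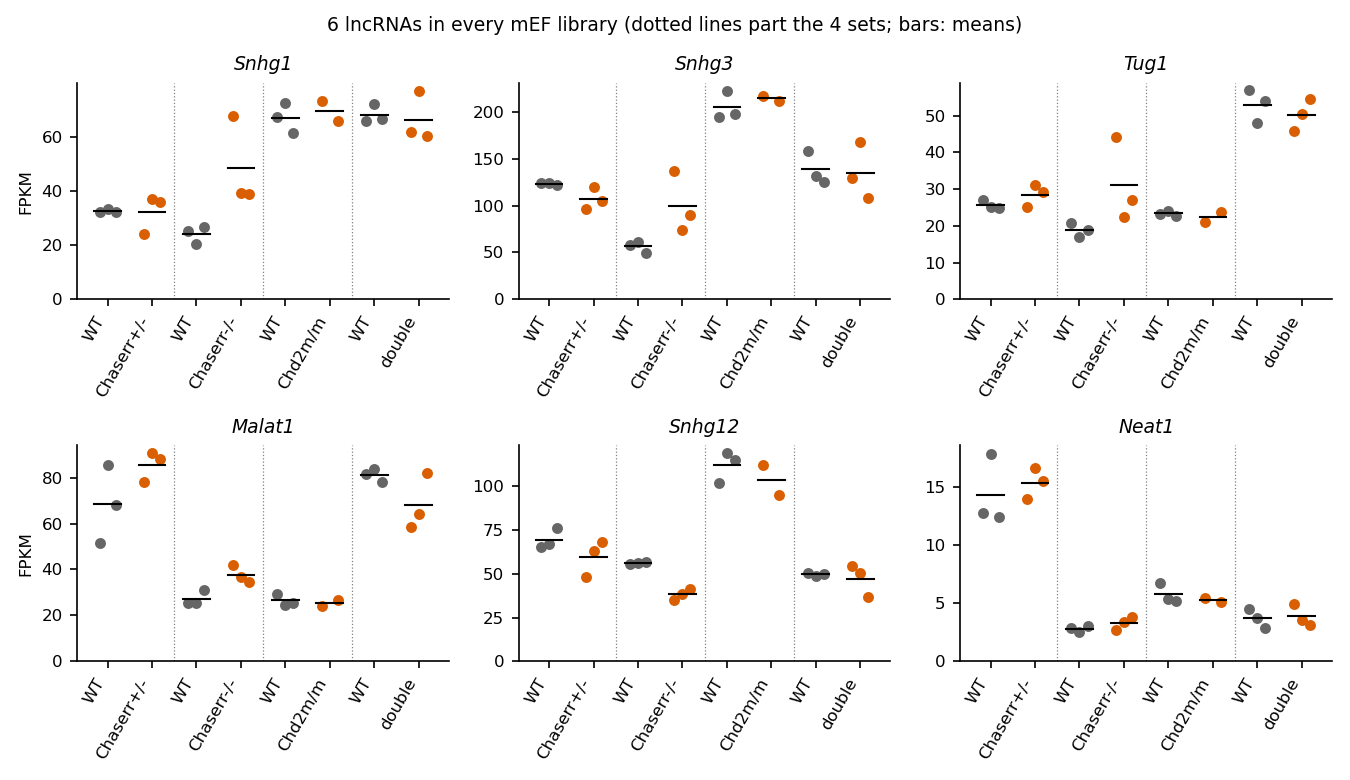
FPKM of 6 lncRNAs in every mEF library, with WT in grey, mutants in orange, bars at means, and dotted lines between the 4 sets in the order Chaserr+/-, Chaserr-/-, Chd2m/m and double mutant. In the Chaserr-/- set Snhg12 was at 35.41 to 41.62 against 55.68 to 57.01 in WT, and the WT means of Malat1 and Neat1 spread more widely across the 4 sets than mutant and WT differed within any set.

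Without the first Chaserr-/- library, which was the highest for Snhg1, Snhg3, Tug1 and Malat1, their changes were 0.62, 0.47, 0.38 and 0.35, and that of Snhg12 was -0.54, which was then called (adjusted p = 0.0339). Without the second Chaserr-/- library Snhg1 (1.06), Snhg3 (0.94), Tug1 (0.95) and Snhg12 (-0.60) were called. DESeq2 called all 5, with adjusted p from 0.00926 to 0.0201, and called 2613 genes (1523 higher and 1090 lower) where edgeR called 16 (3 and 13), or 754 and 357 with library totals. With the WT mEFs of the Chaserr+/- set added to the controls, the change of Malat1 was -0.43 and that of Snhg3 0.06. Macrophage markers moved in the same set, with 2 of 10 called lower, a median of -0.64 and a summed level of 418 to 486 FPKM against 649 to 791 in WT. Summed erythroid levels were 79.3 to 256 against 406 to 884 FPKM (median of 4 tested genes -1.24) and fibroblast levels 2000 to 2471 against 2655 to 2841 (median -0.17), and 24 replication histone genes had a median of -0.77. None of these was called by edgeR, and 3, 1 and 7 had an unadjusted p under 0.05. The part of these markers in the result was not tested. Chd2 rose by 1.45 (adjusted p = 0.00568).

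In Chd2m/m mEFs the 9 genes tested had changes of -0.30 to 0.10, none with an unadjusted p under 0.05 against 4.51% of all genes. Neat1 lay below WT without overlap (-0.25), as did 10.4% of all genes. In double mutant mEFs the changes ran from -0.37 to 0.69. Miat had the largest, with 0.58, 0.44 and 0.33 FPKM against 0.24, 0.35 and 0.26 in WT (0.69, adjusted p = 0.455), and these groups overlapped. Neuronal markers in this set had a median of 0.41 (2 of 10 with an unadjusted p under 0.05) and fibroblast markers of -0.56 (7 of 8), none called, and their part in the value of Miat was not tested. Miat was the only gene of the 10 with an unadjusted p under 0.05, against 9.89% of all genes. Snhg8 lay below WT without overlap (-0.35), as did 7.4% of all genes. Snhg1 read 61.67, 77.06 and 60.38 FPKM against 65.84, 72.03 and 66.48, and Tug1, Snhg3 and Snhg12 overlapped WT as well.

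The difference between the Chaserr-/- effect and the double mutant effect was tested as an interaction. It was 0.96 for Snhg1 (SE 0.29, adjusted p = 0.0857), 0.69 for Malat1 (SE 0.19, adjusted p = 0.0791), 0.80 for Tug1 (SE 0.28, adjusted p = 0.109), 0.79 for Snhg3 (SE 0.30, adjusted p = 0.124) and -0.53 for Snhg12 (SE 0.20, adjusted p = 0.121). None of the 10 genes passed, and 0.112% of all genes did. DESeq2 called the difference for Malat1, Snhg1 and Tug1, and without the second Chaserr-/- library edgeR called it for Malat1, Snhg1, Snhg3 and Tug1. The 2 sets came from different crosses and carried separately made Chaserr- deletions. Their WT mEFs differed for the same genes, with Malat1 at 25.24 to 31.14 FPKM in one and 78.03 to 83.83 in the other and Snhg1 at 20.53 to 26.87 and 65.84 to 72.03.

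Chromatin at the start sites was read from ATAC-seq peaks of 12 mEF libraries, 3 each of Chaserr-/-, double mutant and their WT. A peak within 300 bases of the start was called in all 12 libraries for Tug1, Gas5, Snhg1 and Snhg8, in 11 for Snhg3 and Snhg12, in 10 for Neat1, in 9 for Malat1, in 4 for Miat and in none for Rmst. Of 37252 annotated gene starts, 20.1% had a peak in all 12 libraries. The libraries held 18661 to 93597 peaks. Without the 2 that held fewer than 30000, namely the second WT library of the double mutant set and the first double mutant library, 7 genes had a peak in every library.

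The median fold enrichment of these peaks was 12.9 for Tug1, 12.3 for Snhg1, 12.2 for Snhg3, 11.7 for Snhg8, 8.55 for Snhg12 and 8.37 for Gas5. It was lower at Miat (4.84), Malat1 (3.96) and Neat1 (3.33). For Malat1 a stronger peak, with a median of 6.81, was found in all 12 libraries within 1000 bases, its summit at -1109 to -880 bases from the start. Miat and Rmst, with fewest peaks, were also the genes near 0 FPKM in mEFs.

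At Tug1 the fold enrichment was 10.94 to 13.25 in Chaserr-/- and 11.04 to 14.42 in its WT, and at Snhg1 it was 11.86 to 13.69 against 11.96 to 16.77. At Snhg12 it was 7.30 to 10.7 against 8.23 to 10.3. In each case the libraries of mutant and WT overlapped. Peaks were called in each library alone, so the fold enrichment also moves with the depth of that library, and no test was made.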

How the data were processed

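RNA was measured in 47 libraries of WT and mutant embryos, brain, mEFs and Neuro2a RIP, and open chromatin in 12 mEF libraries. The remaining 4 samples, chromosome contact profiles, were not used. Per the study's methods, the authors mapped strand-specific paired-end reads and quantified RefSeq genes with RSEM, and deposited expected counts, TPM and FPKM per gene. The authors called ATAC-seq peaks with MACS2 after Bowtie2 alignment to mm9, and deposited each peak with a fold enrichment (ratio over background), −log10 p and q values and a score. Tool versions were not given in the sources used here. Rows are Entrez identifiers, and 95.3% received a symbol from RefSeq.

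Expected counts were rounded and tested with the quasi-likelihood test of edgeR 4.0.16 (R 4.3.3) after filterByExpr, with TMM scaling and p-values adjusted by Benjamini-Hochberg across every gene in the fit (threshold 0.05). Each mutant was fitted with its own WT, the 21 WT poly(A) libraries in 1 fit, the 6 RIP libraries in 1 fit (2 per group), and brain kit with genotype as covariate. The fits were tested on simulated counts with 200 genes changed by a log2 of 1.5. Recovery was 0.5% for CHD2 against IgG, 6.5% for CHD2 against input, 3.5% for IgG against input and 30% for Chaserr+/- brain. In the other fits it was 88% to 100%. Most changes of that size were thus missed in the simulated RIP and brain fits. In the RIP, far more genes were called in the data than were changed in the simulation. Adjustment was thus stricter in the simulation, and this recovery is not the power of the real RIP tests. Brains with the same replicate number deviated together (correlations 0.437, 0.529 and 0.747), number 3 sharing the kit. The rule named all 10 lncRNAs, Chd2 and Chaserr, and the 2 nearest genes by correlation. Members and lists were chosen with earlier results of these data known. Alternatives were DESeq2 1.42.0, library totals, other filters, leaving out each library and the replicate block. Multigene or overlapping rows are uncertain: Snhg8 is joined with Snora24, and snoRNA reads may enter a host's counts.

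Marker lists had 10 neuronal, 4 oligodendrocyte, 8 fibroblast, 10 macrophage, 7 erythroid, 4 fetal liver and 8 neuroblastoma genes. Summed levels of fibroblast genes were 778 to 2841 FPKM in WT mEFs and 106 to 559 in the RIP libraries, and of fetal liver genes, mostly Ttr, 774 to 5239 in the RIP libraries. Counting intervals and floors cover counting error only.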

Additional observations from a re-analysis of the deposited data

Results flagged for a closer look

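Snhg3 moved in opposite directions under the same contrast, with all 3 Chaserr+/- E9.5 embryos above WT on normalized counts (log2 change 0.17) and all 3 Chaserr+/- mEFs below WT (-0.17). Neither change passed, and the difference between them was not tested. Groups that do not overlap made up 9.62% of all genes in the embryos and 14.5% in the mEFs.

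RNA of cell types that are not the labelled line was present in the 6 libraries labelled Neuro2a, outside the comparisons of lncRNAs. Mbp ranged from 226.90 FPKM in input to 1363.05 in IgG, Hba-a1, an alpha globin, from 312.66 to 1687.54, and Ttr, transthyretin, from 773.51 to 5238.24. In WT brain libraries the lowest values of Mbp, Hba-a1 and Ttr were 2022, 268 and 849 FPKM.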

How the results depend on the processing

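Of 324 alternative values of single lncRNAs, not counting fits without 1 library, 290 kept direction and side of the threshold, 13 lost and 17 gained a call, and 4 turned: Malat1 (0.047) and Snhg1 (0.039) between embryonic stages with library totals, Malat1 (-0.43) in Chaserr-/- mEFs with more WT, and Tug1 (0.10) between brain and mEFs of the Chaserr-/- set. In Chaserr-/- mEFs, 5 of the genes were called by DESeq2, 3 without a filter, and 2 each with library totals and with at least 10 counts in every library, against 0. In all genes the 16 calls there became 2613, 1407, 1111 and 1383. The interaction had 3 calls by DESeq2 against 0. IgG against input had 1 call against 2 by DESeq2, with at least 10 counts, and with the replicate block. Between embryonic stages 5 were called with library totals against 9, and between brain and mEFs of the Chaserr-/- set 6 against 10. Promoter peaks were in every library for 7 genes without the 2 shallow libraries, an alternative chosen after seeing the data, against 4.

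Leaving out 1 library at a time gave 0 to 4 called genes in Chaserr-/- mEFs, 0 to 4 for the interaction, 0 to 6 for CHD2 against IgG, 0 to 3 for CHD2 against input, 0 to 4 for IgG against input, 6 to 8 between embryonic stages, 6 to 7 between TruSeq brain and E13.5 embryos, 10 between brain and mEFs, 6 to 9 between kits, and 0 in the other 6 mutant comparisons. The cause of these shifts was not tested.

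Over all genes, counts that moved by more than 1.5 times were these. DESeq2 called 5 genes against 0 in E9.5 embryos, 23 against 5 in E13.5 embryos, 1 against 0 in brain, 82 against 23 in Chaserr+/- mEFs, 12 against 2 in Chd2m/m, 224 against 13 in the double mutant, 1515 against 16 for the interaction, 3473 against 1707 for CHD2 against IgG and 3438 against 2246 for CHD2 against input. Without a filter these became 1 in E9.5 embryos, 68 in Chaserr+/- mEFs, 6 in Chd2m/m, 103 in the double mutant, 226 for the interaction and 2563 for CHD2 against IgG. With at least 10 counts, 1 was called in Chd2m/m and 26 for the interaction. Library totals gave 807 for CHD2 against IgG, and added WT mEFs 3 in the Chaserr-/- set. Leaving out 1 library gave 2 to 2827 in Chaserr-/- mEFs, 0 to 1764 for the interaction, 0 to 6468 for CHD2 against IgG, 0 to 970 for CHD2 against input 16 to 7064 for IgG against input, 3 to 201 in the double mutant, 3 to 54 in Chaserr+/- mEFs, 0 to 8 in Chd2m/m, 0 to 6 in E9.5 and 1 to 12 in E13.5 embryos.

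With the replicate number as a block, Miat was called lower in CHD2 than in IgG (-0.82) and higher than in input (0.98), and Rmst lost its call between IgG and input. The block called 3757 genes for CHD2 against IgG, 4201 for CHD2 against input, 1 in E13.5 embryos, 88 in Chd2m/m, 75 in double mutant and 74 in Chaserr+/- mEFs, and 0 in brain. It changed the number of called lncRNAs in no other comparison by over 1.5 times. Same-numbered RIP libraries correlated at 0.192 to 0.323, with only 2 pairs. No paired analysis was possible because Chaserr-/- mEFs and their WT share no replicate numbers.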
